A study of Mus musculus with 10 samples.

Results

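Calcium enters a cell through voltage-gated, transient receptor potential (TRP) and store-operated channels, is released from the endoplasmic reticulum through inositol trisphosphate (IP3) and ryanodine receptors, and is cleared by pumps. The genes of these channels and pumps were compared between the lungs of mice with increased pulmonary flow (IPF) and of sham-operated mice. Members were protein-coding genes chosen by name, without Trpv4, whose level averaged 0.1 FPKM or more across the 10 samples. The names begin with Cacna, Cacnb or Cacng, or with Trpa, Trpc, Trpm, Trpv, Atp2a or Atp2b and a digit. The others are Orai1, Orai2, Orai3, Stim1, Stim2, Itpr1, Itpr2, Itpr3, Ryr1 and Ryr3. FPKM is a fragment count per length of gene and per size of library. Of 54532 genes in the deposited table, 66 had such a name and 41 also passed the limit on the mean. The limit fell between Cacng1 (mean 0.103 FPKM) and Trpm3 (mean 0.0948 FPKM), and the skeletal muscle release channel Ryr1 was among the 25 genes below it. Trpc4ap, which matched by name, codes for an adaptor protein and not for a channel, and was kept as a class of its own.

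Both groups were wild-type C57BL/6J mice that had a laparotomy under isoflurane on postnatal day 7 (P7). In the IPF group the abdominal aorta was punctured through into the inferior vena cava (aortocaval fistula, ACF), and the sham group had every step but the puncture. Whole lungs were taken at P30, 5 per group, and mRNA was sequenced. The libraries held between 15483046 and 19026843 reads on genes, so that 3 reads or fewer in every library of a group were treated as the floor, and no member was there in either group.

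Some measured differences between the libraries touch every result given here. Xist was at 26.8 to 43.2 FPKM in the IPF libraries and at 0.0301 to 0.0767 FPKM in the sham libraries, while the Y-linked gene Ddx3y had no read in any IPF library and 14.3 to 21.4 FPKM in the sham libraries, so sex and group cannot be told apart. Of 13 core clock genes, 12 were called different, 3 higher and 9 lower in IPF, and the hour of collection is not given in the sources used here. The B cell markers were higher in 6 of 6 cases, and the summed endothelial markers ran from 1069 to 1220 FPKM in IPF and from 947 to 989 FPKM in sham, with 1 of 6, Cldn5, called higher and 2 of 6 fitted lower. T cell markers were fitted higher in 6 of 6 cases, with 1, Cd4, called and 4 at a limma unadjusted p under 0.05. Neutrophil markers were also fitted higher in 6 of 6 cases, with 0 called and 4 at a limma unadjusted p under 0.05. Their sums ran from 53.7 to 299.5 FPKM in IPF, highest in IPF 5, and from 15.2 to 82.0 FPKM in sham. The library of sham 1 correlated less with the others (mean Spearman's rho 0.912) than any other library did (0.929 to 0.932), and it was the highest sham library for 41.5% of the members and for 29.5% of all genes tested. The part of these differences in the values of the members was not tested. In whole-lung RNA, fewer cells of a type and less RNA per cell cannot be told apart.

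A voltage-gated calcium channel is built around a pore subunit, which opens on depolarization, with α2δ and β subunits that bring it to the membrane and tune its gating. The L-type pores Cacna1c and Cacna1d carry long-lasting currents, and Cacna1c is the main route of voltage-gated entry in vascular smooth muscle. Store-operated entry joins STIM proteins, which sense the calcium of the endoplasmic reticulum, to the ORAI pores of the cell surface. IP3 receptors release that store after receptor stimulation, SERCA pumps refill it, and PMCA pumps (plasma membrane calcium ATPases) move calcium out of the cell.

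The promoters of the 4 members whose differences are described at most length are shown, so that the DNA next to the start of each gene can be read beside its values. They come from RefSeq (mouse build GRCm38.p6), run from 250 bases before to 50 bases after a start site, and are written 5′ to 3′ on the strand of the gene. Capitals mark a match to CACGTG, the E-box bound by the clock factors ARNTL and CLOCK, or to TTATGNAA, a D-box bound by PAR bZIP factors such as DBP. These motifs were searched because the clock genes differed between the groups. Cacna1c has 3 such windows in the table, Cacna1d 2, Atp2b2 3 and Itpr3 1, and the window shown is the GC-rich one for the L-type pores and the one with a match for the other pair.
Cacna1c (chr6:119108446-119108745, minus strand): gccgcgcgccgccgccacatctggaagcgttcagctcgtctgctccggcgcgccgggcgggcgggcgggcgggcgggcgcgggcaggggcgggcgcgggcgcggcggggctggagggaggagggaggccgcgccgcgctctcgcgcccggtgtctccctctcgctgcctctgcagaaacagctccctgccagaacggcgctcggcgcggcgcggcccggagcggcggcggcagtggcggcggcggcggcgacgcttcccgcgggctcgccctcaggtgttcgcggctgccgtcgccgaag
Cacna1d (chr14:30353437-30353736, minus strand): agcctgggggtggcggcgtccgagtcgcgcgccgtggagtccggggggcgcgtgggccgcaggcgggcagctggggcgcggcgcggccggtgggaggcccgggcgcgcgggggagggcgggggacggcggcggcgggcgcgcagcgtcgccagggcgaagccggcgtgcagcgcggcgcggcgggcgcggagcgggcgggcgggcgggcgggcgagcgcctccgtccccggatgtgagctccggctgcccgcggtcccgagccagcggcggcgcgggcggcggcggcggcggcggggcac
Itpr3 (chr17:27057054-27057353, plus strand): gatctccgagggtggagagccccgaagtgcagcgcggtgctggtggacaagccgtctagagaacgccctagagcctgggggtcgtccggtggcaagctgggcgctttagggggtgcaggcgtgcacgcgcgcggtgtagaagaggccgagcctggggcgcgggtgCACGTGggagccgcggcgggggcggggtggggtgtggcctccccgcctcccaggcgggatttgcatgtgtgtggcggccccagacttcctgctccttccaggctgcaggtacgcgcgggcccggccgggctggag
Atp2b2 (chr6:113934632-113934931, minus strand): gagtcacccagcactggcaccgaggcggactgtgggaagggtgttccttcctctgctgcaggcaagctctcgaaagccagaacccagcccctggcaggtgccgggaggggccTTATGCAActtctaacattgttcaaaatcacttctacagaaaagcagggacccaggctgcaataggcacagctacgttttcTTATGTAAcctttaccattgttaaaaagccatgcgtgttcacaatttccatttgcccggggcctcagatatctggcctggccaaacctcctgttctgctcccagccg
None of the 5 windows of Cacna1c and Cacna1d held CACGTG, TTATGNAA or a CArG box, the site of serum response factor. The Itpr3 window held CACGTG, and the Atp2b2 window held TTATGNAA at separate places. Of the 41 members, 31 had an entry in the table, with 44 windows in all. On both strands, CACGTG was found in 11.4% of these windows (those of Atp2b1, Itpr3, Orai2, Trpm7 and Trpv3) and in 7.15% of the 32851 windows of all genes. The TTATGNAA motif was found in 2.27% of member windows, that of Atp2b2, and in 3.38% of all windows. The CArG box was found in 2.27%, that of Trpc6, and in 1.63% of all. The median GC content was 62.2% for member windows and 52.7% for all. A match is a run of letters and does not show that a factor binds.

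The question was which of these genes differed in level at P30 after surgery at P7. With limma on log2(FPKM + 0.1) and Benjamini-Hochberg adjustment over the 20448 genes tested, 2 of the 41 members (4.88%) had an adjusted p under 0.05, beside 5.85% of all genes tested. The count was 0 without IPF 1, 5 among protein-coding genes alone and 6 with limma voom. They were the L-type pores, and they went in opposite directions: Cacna1c was lower and Cacna1d was higher in IPF. With the study's further limit of an absolute log2 fold change above 1, limma called 0 members (background 1.14%). Of the members past that fold change, 1, Atp2b2, had an unadjusted p under 0.05. The unadjusted p was under 0.05 for 12 members (29.3%), 5 higher and 7 lower, beside 19.5% of all genes.

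Every IPF value lay above every sham value for 2 members, Cacna1i and Orai3, which is 4.88% of members beside 4.52% of all genes. For 3 members, Cacna1c, Itpr3 and Ryr3, every IPF value lay below every sham value, which is 7.32% beside 2.77%. These 5 were singled out after their values were seen. Across the 41 members, 28 had a higher and 13 a lower fitted level in IPF. The median log2 fold change was 0.10 for the members and 0.0016 for all genes tested.

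**Figure D1:**
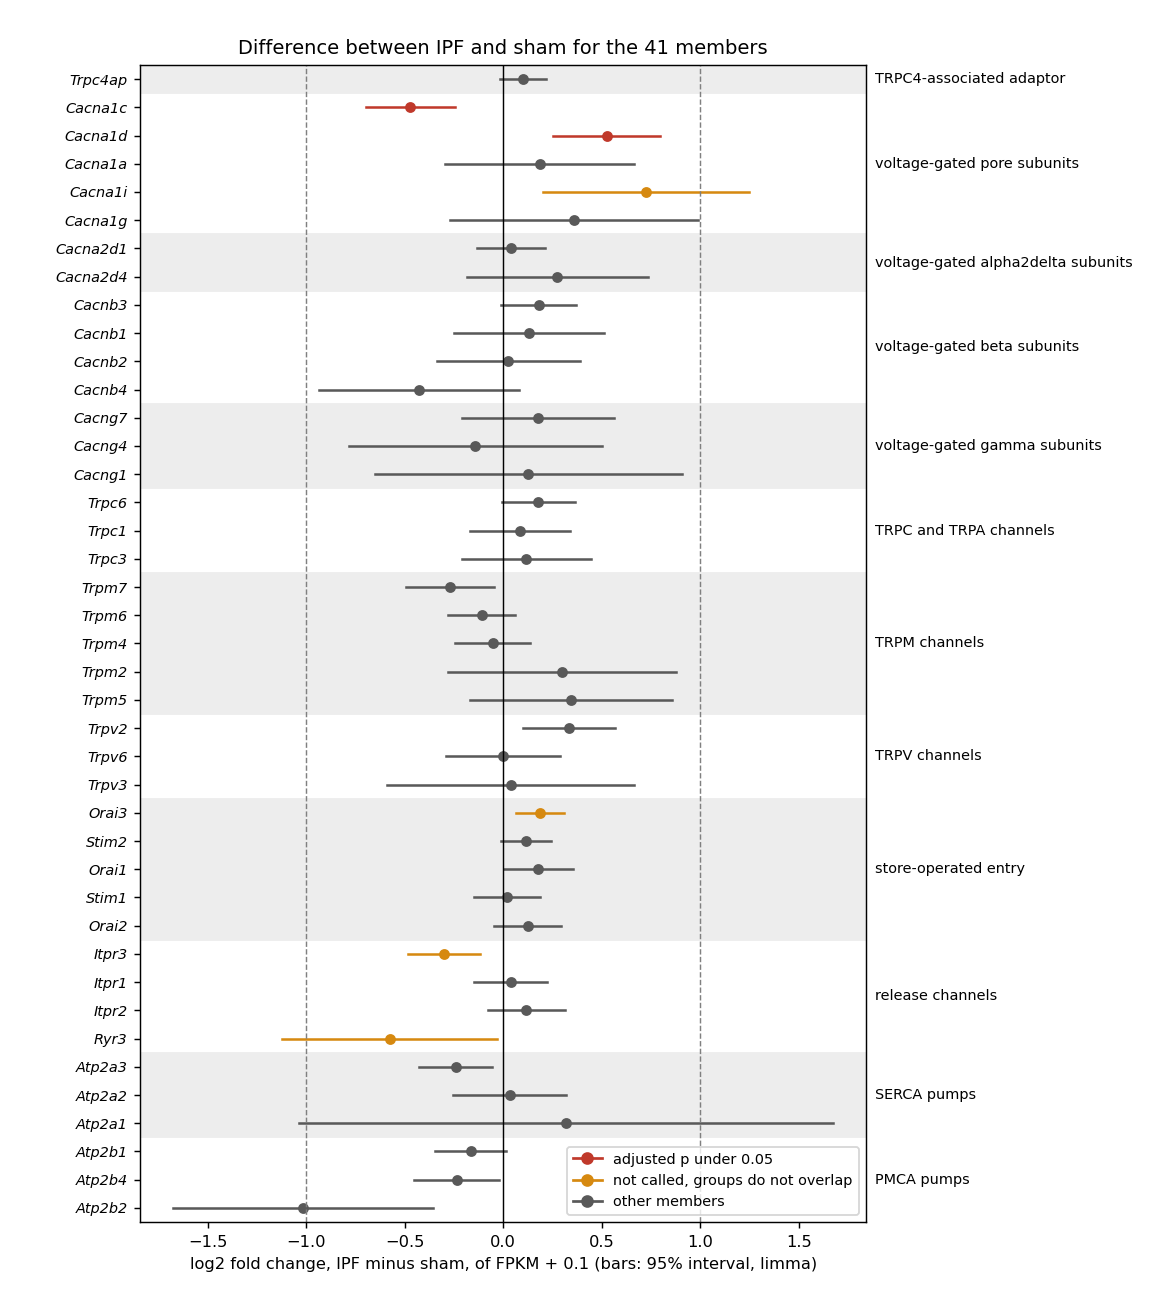
The log2 fold change (IPF minus sham, horizontal axis) of each of the 41 members with its 95% interval from limma, grouped by class from top to bottom. Red marks the 2 called members, orange the 4 others whose groups did not overlap, and dashed lines a log2 fold change of 1 in either direction; the 95% interval of 23 members lies wholly between -0.5 and 0.5.

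The 95% interval of the log2 fold change lay wholly between -0.5 and 0.5 for 23 members, and between -1 and 1 for 37. With a pseudocount of 0.01 in place of 0.1, which shrinks low genes less, these counts were 23 and 30. A log2 fold change of less than 0.25 in either direction was fitted for 27 members. Mean levels ran from 0.103 FPKM for Cacng1, a subunit of the skeletal muscle channel, to 86.4 FPKM for Atp2a3, with a median of 3.90 FPKM. Below a mean of 1 FPKM lay 13 members, and at 10 FPKM or above lay 8. The wide intervals belonged to low genes, such as Cacng1 with 0 to 4 reads per library.

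**Figure D2:**
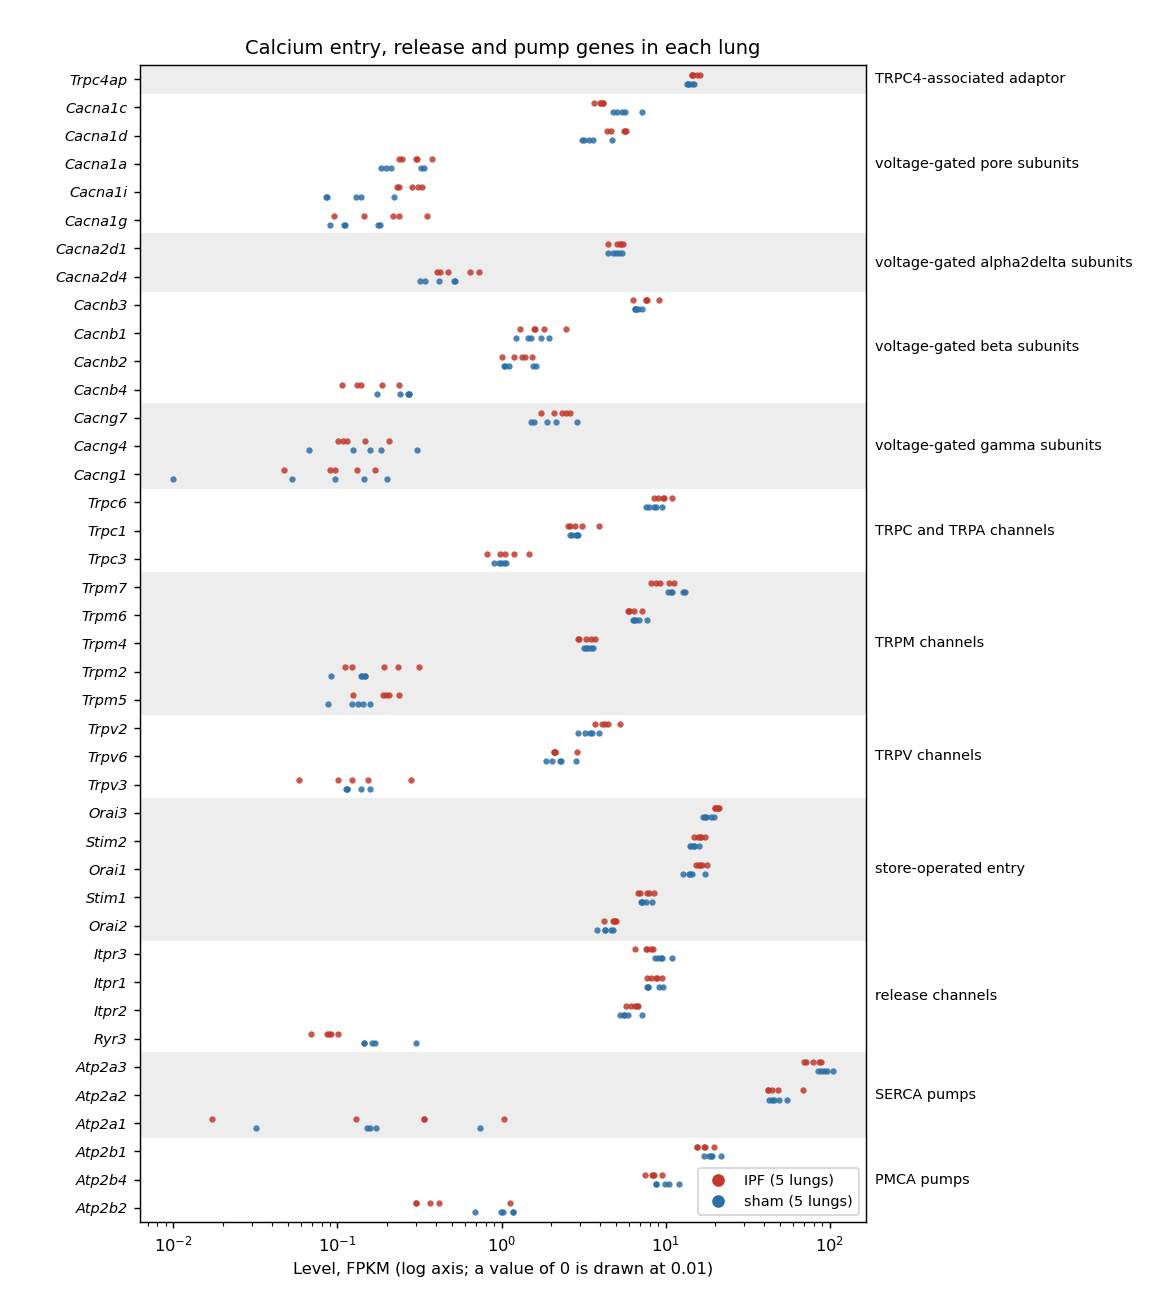
The level of each member in FPKM (horizontal axis, logarithmic) in each of the 5 IPF lungs (red) and the 5 sham lungs (blue), by class. Atp2a3 and Atp2a2 stand highest, at 41.8 to 104 FPKM, and for most members the red and blue points overlap.

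Cacna1c (ENSMUSG00000051331, chr6:118587240-119196418, minus strand, GRCm38) was at 4.02, 4.13, 3.64, 4.14 and 4.01 FPKM in the IPF lungs 1 to 5. In the sham lungs 1 to 5 it was at 7.19, 4.77, 5.43, 5.07 and 5.65 FPKM. All IPF values lay below all sham values, and the sham lungs were the more spread, with sham 1 the highest. The means were 3.99 ± 0.205 FPKM in IPF and 5.62 ± 0.940 FPKM in sham (SD, n = 5), a level 1.41-fold higher in sham. The log2 fold change was -0.47 (SE 0.10, limma adjusted p = 0.0213). An exact two-sided permutation test over the 252 ways to assign 5 of 10 samples gave p = 0.00794, the smallest that this design allows. Without IPF 1 the adjusted p was 0.0508, and with any other library left out it stayed between 0.0184 and 0.0488. Without sham 1 the log2 fold change was -0.38, with an adjusted p of 0.0184.

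Cacna1d (ENSMUSG00000015968, chr14:30039939-30491455, minus strand) was at 5.66, 5.74, 4.38, 5.61 and 4.65 FPKM in the IPF lungs and at 4.73, 3.41, 3.20, 3.10 and 3.61 FPKM in the sham lungs. Sham 1 was again the highest of its group, and it lay above IPF 3 and IPF 5, so that the groups overlapped and 3 of 5 IPF values were above all sham values. The mean level was 1.44-fold higher in IPF, at 5.21 ± 0.641 against 3.61 ± 0.656 FPKM (SD, n = 5). The log2 fold change was 0.52 (SE 0.12, limma adjusted p = 0.0313), with an exact permutation p of 0.0238. This call was the less stable one, since it held with 3 of 10 libraries left out in turn (IPF 3, IPF 5 or sham 1) and the adjusted p reached 0.0849 without IPF 4. It was also lost with no filter on low values (adjusted p = 0.0515) and with no variance trend (adjusted p = 0.0536). Without sham 1 the log2 fold change was 0.62, with an adjusted p of 0.0109.

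Set against each other within a library, the L-type pores separated the groups, as Cacna1c alone did and Cacna1d alone did not. The ratio of Cacna1d to Cacna1c FPKM was 1.41, 1.39, 1.20, 1.35 and 1.16 in the IPF lungs and 0.658, 0.714, 0.590, 0.611 and 0.638 in the sham lungs. It was above 1 in every IPF lung and below 1 in every sham lung, and sham 1 no longer stood out. Of the summed FPKM of the 5 pore genes, Cacna1c made up 40.1 ± 2.09% in IPF and 57.7 ± 2.19% in sham, and Cacna1d 52.1 ± 2.21% and 37.0 ± 1.35%. The sum itself was 9.98 ± 0.846 FPKM in IPF and 9.75 ± 1.62 FPKM in sham. The ratio was formed after both calls were known and is given as a description.

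**Figure D3:**
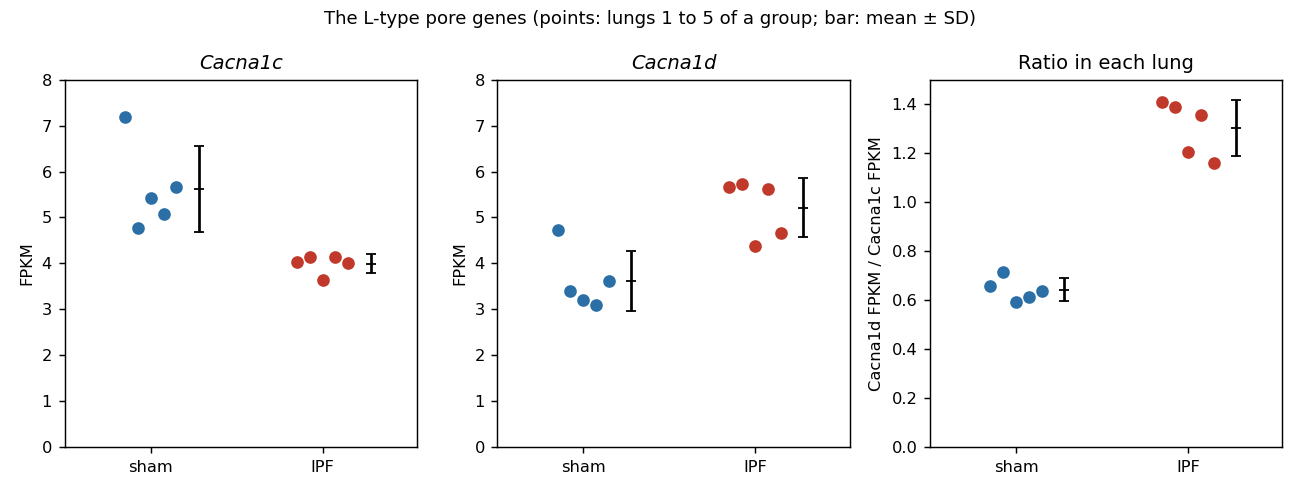
FPKM of Cacna1c and of Cacna1d, and the ratio of Cacna1d to Cacna1c in each lung (vertical axes), for 5 sham (blue) and 5 IPF (red) lungs, with the mean and SD beside the points. The ratio runs from 0.590 to 0.714 in sham and from 1.16 to 1.41 in IPF. The Cacna1c values alone do not overlap, and the Cacna1d values alone do.

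Genes on the opposite strand overlap the ends of both pores, and whether reads were counted by strand is not given in the sources used here. Dcp1b, which overlaps Cacna1c, was at 2.12 ± 0.186 FPKM in IPF and 2.63 ± 0.304 FPKM in sham (log2 fold change -0.30, limma adjusted p = 0.129). Chdh and Dcp1a, which overlap Cacna1d, each had a log2 fold change of -0.11 (adjusted p = 0.787 and 0.436). The part of these overlapping genes in the values of the pores was not tested. Contractile smooth muscle markers summed to 134 to 257 FPKM in IPF and 163 to 205 FPKM in sham, and 6 of 8 were fitted lower in IPF (median log2 fold change -0.20), of which 1, Smtn, was called. IPF 3 had the highest sum of all, and the part of smooth muscle in the Cacna1c values was not tested.

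Of the other pores, Cacna1i, a T-type channel that opens near the resting potential, was at 0.328, 0.286, 0.236, 0.312 and 0.229 FPKM in IPF and at 0.221, 0.130, 0.139, 0.0852 and 0.0864 FPKM in sham. The groups did not overlap, but sham 1 lay just below the lowest IPF lung. These levels rest on 40 to 56 reads in IPF and 13 to 36 in sham. The mean was 2.10-fold higher in IPF, with a log2 fold change of 0.72 (SE 0.24), and it missed the adjusted limit (limma adjusted p = 0.110, exact permutation p = 0.00794). On recovered reads, limma voom gave a log2 fold change of 1.11 with an adjusted p of 0.0178, while limma with a pseudocount of 0.01 gave 1.08 with an adjusted p of 0.107. Cacna1a, the P/Q-type pore, and Cacna1g, another T-type pore, are outside the rule for named genes and lay at means of 0.272 and 0.171 FPKM with overlapping groups.

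None of the auxiliary subunits was called by limma or by voom, and none had a limma unadjusted p under 0.05. Cacnb4, outside the rule for named genes, had an exact permutation p of 0.032, with 3 of 5 IPF lungs below all sham lungs. Cacna2d1, the main α2δ subunit, was at 5.12 ± 0.408 FPKM in IPF and 4.97 ± 0.372 FPKM in sham (95% interval of the log2 fold change -0.13 to 0.21), and Cacna2d4 was at 0.534 ± 0.145 and 0.421 ± 0.0937 FPKM. Cacnb3, which made up 70.5 ± 1.57% of the β subunit FPKM in IPF and 68.5 ± 2.27% in sham, was at 7.66 ± 1.01 and 6.71 ± 0.268 FPKM (log2 fold change 0.18, limma adjusted p = 0.287). In IPF, 4 of 5 lungs lay above all sham lungs for Cacnb3, and IPF 5 lay below them all. Cacnb1 was at 1.76 ± 0.448 and 1.58 ± 0.276 FPKM. Among the γ family, Cacng7, which also acts on glutamate receptors, was at 2.24 ± 0.344 and 2.01 ± 0.555 FPKM, and Cacng4 was at 0.135 ± 0.0432 and 0.168 ± 0.0884 FPKM.

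TRP channels pass cations without needing depolarization; most of them pass calcium, whereas Trpm4 and Trpm5 are opened by calcium and pass sodium and potassium. None was called by limma or by voom, and Trpm7 and Trpv2 had a limma unadjusted p under 0.05. The exact permutation p was 0.063 for Trpm7 and 0.032 for Trpm5, which is outside the rule for named genes. Trpc6, a diacylglycerol-gated channel known from pulmonary artery smooth muscle, was at 9.58 ± 0.943 FPKM in IPF and 8.45 ± 0.780 FPKM in sham (log2 fold change 0.18, limma adjusted p = 0.271). Trpc1 was at 3.00 ± 0.568 and 2.79 ± 0.127 FPKM. Trpm7, a channel with its own kinase domain that also carries magnesium, was at 9.60 ± 1.29 FPKM in IPF and 11.6 ± 1.25 FPKM in sham (log2 fold change -0.27, adjusted p = 0.158), and 3 of 5 IPF lungs lay below all sham lungs. Its relative Trpm6 was at 6.29 ± 0.526 and 6.80 ± 0.561 FPKM.

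Trpv2, found in macrophages and muscle cells, was at 3.69, 4.47, 4.27, 5.29 and 4.08 FPKM in IPF and at 2.94, 3.48, 3.93, 3.24 and 3.57 FPKM in sham. All IPF lungs but IPF 1 lay above every sham lung. The log2 fold change of 0.33 (SE 0.11) had a limma adjusted p of 0.102 and an exact permutation p of 0.0159. Trpv6, an epithelial calcium channel, was at 2.25 ± 0.346 FPKM in IPF and 2.26 ± 0.375 FPKM in sham, with a 95% interval of the log2 fold change from -0.29 to 0.29.

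In the store-operated class the 5 members all had a fitted level higher in IPF, and none was called by limma or by voom. Orai3, whose protein joins store-operated and store-independent entry channels, was at 21.3, 20.7, 20.5, 20.04 and 20.1 FPKM in IPF and at 17.3, 17.7, 18.8, 19.7 and 16.8 FPKM in sham. The groups did not overlap, and sham 4 came closest to the IPF range. The means of 20.5 ± 0.499 and 18.1 ± 1.20 FPKM were 1.14-fold apart (log2 fold change 0.19, SE 0.05, limma adjusted p = 0.0731, exact permutation p = 0.00794). Without sham 4 the adjusted p was 0.0420, the 1 pass with each of the 10 libraries left out in turn, where it reached 0.145. It passed in 0 of 10 alternative settings. Stim2, the sensor that responds to small falls in the store, was at 16.1 ± 0.954 and 14.8 ± 0.734 FPKM (log2 fold change 0.12, adjusted p = 0.296). Orai1, the pore of the classical store-operated current, was named after its values were seen, and was at 16.4 ± 0.956 and 14.5 ± 1.70 FPKM with an adjusted p of 0.243.

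The summed FPKM of the class was 65.3 ± 0.908 in IPF (64.1 to 66.7) and 59.2 ± 2.63 in sham (57.8 to 63.9), so the sums did not overlap. The make-up of the class was close in both groups. Orai3 held 31.4 ± 1.03% of the sum in IPF and 30.5 ± 1.18% in sham, Orai1 25.1 ± 1.20% and 24.4 ± 1.86%, and Stim2 24.6 ± 1.59% and 25.0 ± 0.682%. As a sum over members it is a description, with no test.

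Among the release channels, Itpr3, the IP3 receptor known best from epithelia, was at 8.17, 6.54, 7.61, 7.69 and 8.37 FPKM in IPF and at 10.9, 9.44, 9.39, 8.64 and 9.02 FPKM in sham. Every IPF lung was below every sham lung, by a narrow gap between IPF 5 and sham 4. The mean was 1.24-fold higher in sham (log2 fold change -0.30, SE 0.08), and the limma adjusted p of 0.0593 fell just outside the limit, with an exact permutation p of 0.00794. It passed in 3 of 10 alternatives, with an adjusted p of 0.0420 where the mean had to be at least 1 FPKM, 0.0409 among protein-coding genes alone and 0.0273 with limma voom on recovered reads. Itpr1, the form of smooth muscle and neurons, was at 8.59 ± 0.662 and 8.38 ± 0.913 FPKM, with a 95% interval of the log2 fold change from -0.15 to 0.22.

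The shares of the 4 release channels sum to the whole, so that a lower share of 1 raises the others, and they are given as a description. Itpr3 made up 33.7 ± 1.22% of the summed FPKM of the release channels in IPF and 39.6 ± 1.60% in sham, and Ryr3 0.386 ± 0.0532% and 0.755 ± 0.179%. Itpr2, named after its values were seen, made up 28.1 ± 1.00% (26.4 to 29.0%) in IPF and 24.6 ± 0.590% (24.1 to 25.6%) in sham, though its own level overlapped, at 6.39 ± 0.441 and 5.91 ± 0.753 FPKM (limma adjusted p = 0.522). An opposite-strand gene within Itpr2, Gm44087, was higher in IPF, at 0.409 ± 0.103 against 0.164 ± 0.0304 FPKM (log2 fold change 0.93, adjusted p = 0.0271).

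Ryr3, a ryanodine receptor of low abundance outside brain and muscle, was at 0.0867, 0.0885, 0.0920, 0.0694 and 0.101 FPKM in IPF and at 0.300, 0.162, 0.144, 0.146 and 0.169 FPKM in sham. The groups did not overlap, and sham 1 stood well above the other sham lungs. The values rest on 24 to 34 reads in IPF and 44 to 94 in sham. The mean was 2.10-fold higher in sham, with a log2 fold change of -0.58 (SE 0.25, limma adjusted p = 0.228, exact permutation p = 0.00794). Without sham 1 it was -0.45 (adjusted p = 0.237), and limma voom on recovered reads gave -1.02 (adjusted p = 0.0168). Aven, on the opposite strand, overlaps one end of Ryr3 and was at 2.65 ± 0.473 and 3.11 ± 0.440 FPKM. Of the nerve and neuroendocrine markers, Uchl1 was lower in IPF (log2 fold change -0.81, adjusted p = 0.0170), while Chga, Syt1 and Snap25 were near 0 in all libraries; their part in the Ryr3 values was not tested.

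The SERCA pumps Atp2a3 and Atp2a2 were the most abundant members, while Atp2a1, the fast skeletal muscle form, averaged 0.311 FPKM with 1 to 66 reads per library. Atp2a3, the form of blood cells, endothelium and epithelia, was at 86.2, 69.5, 79.4, 72.2 and 89.1 FPKM in IPF and at 96.7, 92.7, 104, 88.3 and 85.2 FPKM in sham. The groups overlapped, with 3 of 5 IPF lungs below all sham lungs. The log2 fold change was -0.24 (SE 0.08, limma adjusted p = 0.136, exact permutation p = 0.0397). Atp2a2, the form of heart and smooth muscle and of most other cells, was at 49.1 ± 11.2 and 47.3 ± 4.83 FPKM (log2 fold change 0.03, adjusted p = 0.925). Its highest values, 68.5 FPKM in IPF 4 and 54.7 FPKM in sham 3, were in the libraries whose cardiac muscle markers summed to 166 and 151 FPKM, beside 18.1 to 56.1 FPKM in the other 8. Of the 8 cardiac markers 7 were tested and 0 called by limma (0 at an unadjusted p under 0.05, 0 by voom), with Nppa at or near 0 in all libraries; the part of heart tissue in the Atp2a2 values was not tested. Without IPF 4 the log2 fold change of Atp2a2 was -0.09.

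The PMCA pumps all had a fitted level lower in IPF, and their sum was 25.9 ± 1.84 FPKM (24.1 to 28.4) against 30.1 ± 3.11 FPKM (26.9 to 35.2). Atp2b1, the form present in most cells, was at 17.0 ± 1.69 and 19.1 ± 1.76 FPKM (log2 fold change -0.16, limma adjusted p = 0.300), and Atp2b4 was at 8.42 ± 0.709 and 9.99 ± 1.43 FPKM (log2 fold change -0.24, adjusted p = 0.206).

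Atp2b2, a fast-acting form known from hair cells and neurons, had the largest fitted difference of the 41 members. It was at 0.303, 0.414, 1.12, 0.300 and 0.367 FPKM in the IPF lungs and at 1.17, 1.03, 0.998, 1.18 and 0.691 FPKM in the sham lungs. In IPF, 4 lungs lay below every sham lung, and IPF 3 lay within the sham range. The mean was 2.02-fold higher in sham, with a log2 fold change of -1.01 (SE 0.30, limma adjusted p = 0.0767, exact permutation p = 0.0317). Gm44167, a gene within Atp2b2 on the same strand, was at 0.114 ± 0.0393 FPKM in IPF and 0.221 ± 0.153 FPKM in sham (log2 fold change -0.47, adjusted p = 0.503), and reads of the pair may not be told apart. Without IPF 3 the log2 fold change of Atp2b2 was -1.31 and the adjusted p 0.00526. With limma voom on recovered reads all 10 lungs gave -1.19 (adjusted p = 0.0191).

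Secretory airway cell genes were also high in IPF 3. A list of 6 of them, added after the data were seen and with most of its sum from the club cell secretoglobin Scgb1a1, summed to 27460 FPKM in IPF 3, beside 3713 to 13250 FPKM in the other IPF lungs and 11530 to 23000 FPKM in sham. Of the 6 genes, 3 were fitted higher and 3 lower in IPF, and Scgb3a2 had the higher mean in IPF (386 ± 223 against 236 ± 81.7 FPKM). None was at 0 in all libraries, and limma called 0 of 6 different (0 at an unadjusted p under 0.05, 0 by voom). Ciliated airway cell genes, 8 in number, summed to 245 FPKM in IPF 3, 152 to 200.1 FPKM in the other IPF lungs and 146 to 224 FPKM in sham, with 1 fitted higher and 7 lower and 0 called by limma (0 at an unadjusted p under 0.05, 0 by voom). With the mean log2(FPKM + 0.1) of both lists as a covariate, also chosen after the data were seen, the log2 fold change of Atp2b2 was -0.81 (adjusted p = 0.0135). That fit gives the difference between the groups beside the covariate, and the part of airway tissue in the Atp2b2 values was itself not tested.

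**Figure D4:**
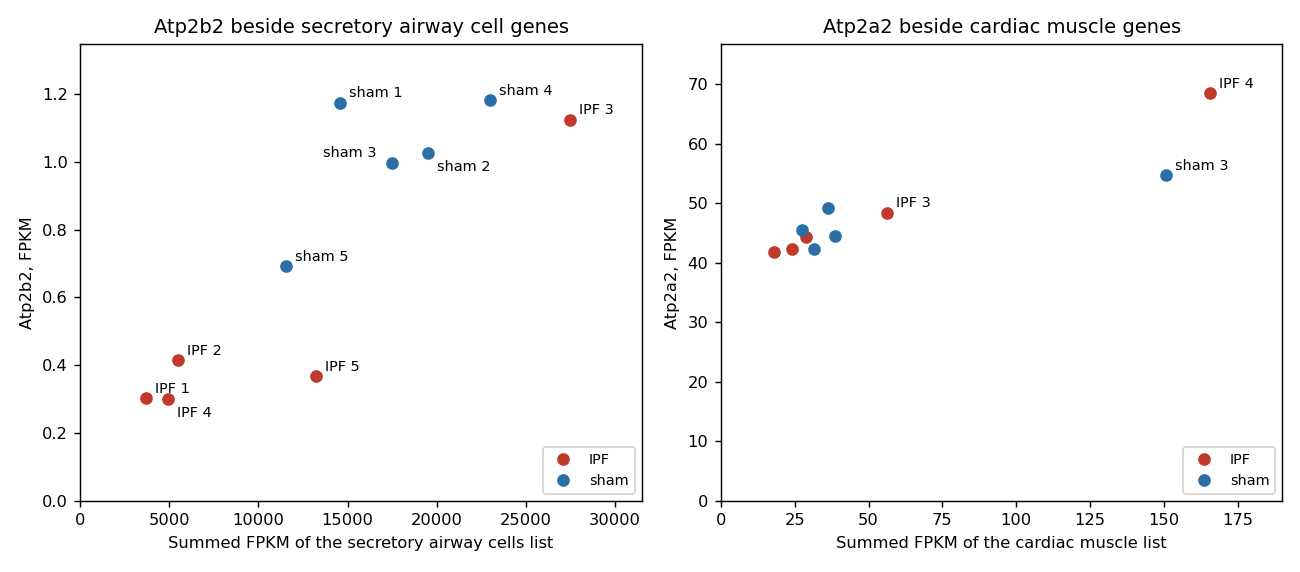
Each point is 1 lung (IPF red, sham blue). Left, Atp2b2 FPKM against the summed FPKM of 6 secretory airway cell genes, with IPF 3 at 27460 and 1.12 among the sham lungs in height; right, Atp2a2 FPKM against the summed FPKM of 8 cardiac muscle genes, with IPF 4 (166 and 68.5) and sham 3 (151 and 54.7) apart from the other 8 lungs.

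On recovered reads, limma voom called 6 of the 41 members (14.6%), 2 higher and 4 lower, beside 7.17% of all genes: Cacna1c and Cacna1d with Cacna1i, Itpr3, Ryr3 and Atp2b2. Of these, 3 (7.32% of the members, beside 1.43% of all genes) were past both limits, Cacna1i, Ryr3 and Atp2b2.

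**Figure D5:**
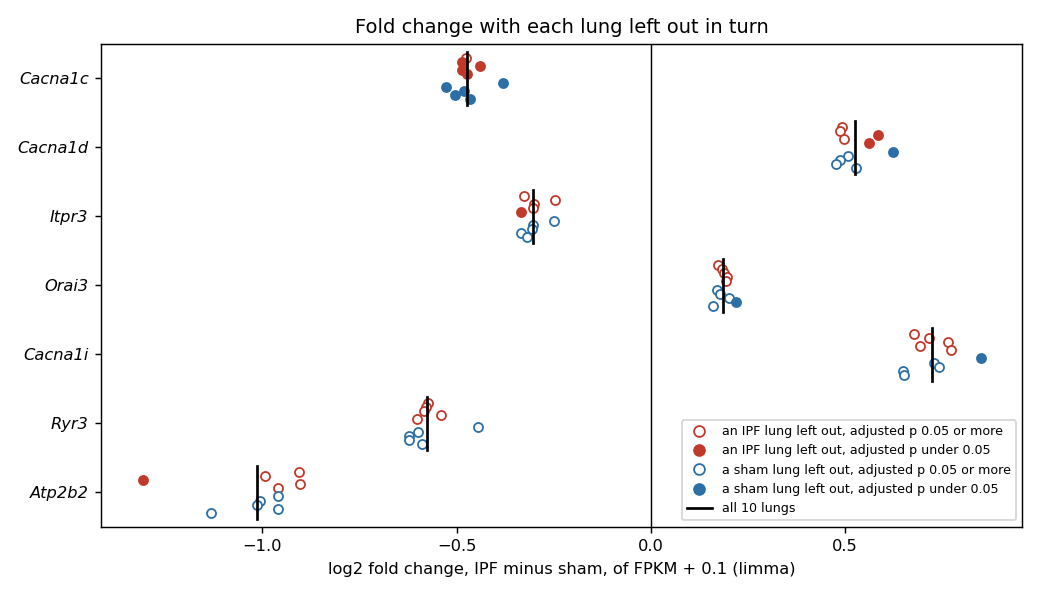
The log2 fold change (IPF minus sham, horizontal axis) of 7 members with each of the 10 lungs left out in turn; a filled point has an adjusted p under 0.05, red means an IPF and blue a sham lung left out, and the black line is the value with all 10. No point crosses 0, Cacna1c is filled in all but 1 case, and Atp2b2 is filled once, without IPF 3.

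Proteins that regulate these channels and stores gave a few calls of their own. Of 94 partner genes listed by function, 92 were in the table and 85 were tested. Limma called 7 (8.24%, beside 5.85% of all genes), 6 higher and 1 lower, and their median log2 fold change was 0.05. Of 8 regulators of voltage-gated channels, 2 rose, Rrad and Gem. They are 2 of the 4 RGK genes, whose small GTPases hold back high-voltage-activated calcium channels; of the other two, Rem1 was at 6.70 ± 1.17 against 4.83 ± 0.449 FPKM (limma adjusted p = 0.0624) and Rem2 at 1.62 ± 0.371 against 1.42 ± 0.246 FPKM (adjusted p = 0.643). Rrad was at 8.68, 8.37, 7.21, 8.63 and 6.27 FPKM in IPF and at 4.35, 4.49, 3.48, 5.94 and 2.66 FPKM in sham, with no overlap (log2 fold change 0.93, SE 0.18, adjusted p = 0.0140). Gem was at 16.1 ± 0.913 FPKM in IPF and 12.7 ± 0.773 FPKM in sham (log2 fold change 0.34, adjusted p = 0.00811), again with every IPF lung above every sham lung.

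Tmem178, an inhibitor of store-operated entry, was at 20.2 ± 2.25 and 14.2 ± 1.01 FPKM and had the smallest adjusted p of the partners (log2 fold change 0.50, adjusted p = 0.00597). Jph2, which holds the endoplasmic reticulum close to the cell membrane in heart and smooth muscle, was at 9.02 ± 1.83 and 5.31 ± 0.400 FPKM (log2 fold change 0.73, adjusted p = 0.0110). Mrln, a small inhibitor of SERCA in skeletal muscle, had 4 to 10 reads in IPF and 0 to 3 in sham, so it was at the floor in sham and no fold change is given (adjusted p = 0.0176). Ahcyl2, a relative of the IP3 receptor inhibitor Ahcyl1 and the remaining gene to rise, was outside the rule for named genes (6.81 ± 1.17 against 4.59 ± 0.648 FPKM, log2 fold change 0.55, adjusted p = 0.0296). Cracr2a, a calcium-binding protein that aids ORAI1 and STIM1, was the 1 partner that fell, from 6.76 ± 0.922 FPKM in sham to 5.13 ± 0.483 FPKM in IPF (log2 fold change -0.39, adjusted p = 0.0426). This call was lost with any 1 of the 10 libraries left out (adjusted p from 0.0513 to 0.0984), with no filter on low values, with no variance trend and with the airway covariate. That of Ahcyl2 was lost in 5 of the 10 cases and with no variance trend, and that of Mrln without IPF 2 (adjusted p = 0.0506).

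Among the other partners, limma called 0 of 14 exchangers and mitochondrial uniporter genes (3 at an unadjusted p under 0.05, 0 by voom), 0 of 15 other calcium-permeable channels (4 unadjusted, 1 by voom), and 0 of 12 calmodulin and calmodulin kinase genes (1 unadjusted, 0 by voom). Among 15 phospholipases and IP3 receptor partners, Ahcyl2 was the 1 call (6 at an unadjusted p under 0.05, 2 called by voom).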

How the data were processed

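Whole-lung mRNA of 5 IPF and 5 sham mice was analysed. Per the methods, the authors trimmed reads with Fastp, aligned them with HISAT2 and quantified genes with StringTie; the submitters' notes list Bowtie 0.12.2. The authors deposited 1 FPKM value per gene and sample. Gene positions are those of GRCm38 (the last gene on chromosome 1 ends at 195323493), although the methods name GRCm39. Each deposited FPKM multiplied by gene length was a whole multiple, within 0.01 read, of the value of 1 read in that sample, which gave the reads.

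Genes that averaged 0.1 FPKM or more were tested with limma 3.58.1 (R 4.3.3, trended variances) on log2(FPKM + 0.1), which understates the change of low genes, with no covariate and Benjamini-Hochberg adjustment over all 20448 genes. The fit was tested on simulated data. Exact permutation tests were two-sided, over 252 assignments, with no adjustment over the members. Errors are SD over samples. Tables were made in Python 3.11.15 (pandas 2.3.3, numpy 2.4.6).

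Members and lists were chosen with earlier results of these data known. Named were the called members, the 2 highest members of each class, the 3 largest fold changes among those not called, and up to 5 partner genes in each direction with the smallest adjusted p under 0.05; Cacng1 and Trpm3 mark the limit on the mean, Atp2a1 completes its class, and others are named as such in the text. Alternatives were pseudocounts of 1 and 0.01, other filters, median-of-ratios scaling, no variance trend, a replicate block, limma voom on recovered reads, protein-coding genes alone, each library left out, and, after seeing the data, an airway covariate.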

Additional observations from a re-analysis of the deposited data

Results flagged for a closer look

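Among 52 sets of 5 values, 1 for each group of the 26 members named by the rule, 5 (9.62%) held a sample far from the others by Dixon's test at the 95% level, which flags about 1 set in 20 by chance. Cacna1c in IPF 3 was at 3.64 FPKM, below the 4.01 to 4.14 FPKM of the other IPF lungs. Atp2b2 in IPF 3 was at 1.12 FPKM, above 0.300 to 0.414 FPKM. Ryr3 in sham 1 was at 0.300 FPKM, above 0.144 to 0.169 FPKM. Trpv6 in IPF 5 was at 2.87 FPKM, above 2.08 to 2.12 FPKM. Atp2a2 in IPF 4 was at 68.5 FPKM, above 41.8 to 48.4 FPKM.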

How the results depend on the processing

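The 2 calls among the members became 1 with no filter on low values (Cacna1d at an adjusted p of 0.0515), 6 with limma voom on recovered reads, and 5 with protein-coding genes alone; with no variance trend the count was 3, with Cacna1i and Ryr3 called and Cacna1d not (adjusted p = 0.0536), and it was also 3 with a mean of at least 1 FPKM (Itpr3 added) and with the airway covariate (Atp2b2 added); the count past both limits, 0, became 3 with voom and 1 with protein-coding genes alone. With each library left out, the members called ranged from 0 (without IPF 1) to 3, those past both limits from 0 to 1 (Atp2b2 without IPF 3), and the partner genes called from 5 to 10. Of 26 members named, 22 kept their direction under every setting that gave a value, of 20; the limit of 1 FPKM on the mean gave none for members below it. The others were close to no change. With a library left out, the log2 fold change of Cacng4 ranged from -0.296 (without sham 4) to 0.0233 (without sham 1), that of Trpc1 from -0.0164 (without IPF 5) to 0.139 (without IPF 2), and that of Atp2a2 from -0.0931 (without IPF 4) to 0.0873 (without sham 3), with -0.0044 without sham 2. That of Trpv6 ranged from -0.0902 (without IPF 5) to 0.0801 (without sham 3), with 0.02, 0.0177, 0.0145 and 0.022 without IPF 1, 2, 3 and 4, and 0.0054 and 0.0032 without sham 1 and 5. The cause was not tested.

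Samples of the same number deviated together only weakly (correlations of -0.02 to 0.095). For IPF 1, 2 and 5 no other sham sample correlated more than the one of the same number. For IPF 3 and for IPF 4, 2 others did. Whether the numbers mark pairs cannot be told from these values. With the replicate block the members called were 2, those past both limits 0 and the partner genes called 9, against 7. Members under 1 FPKM rest on few reads, so differences in them may be missed at this depth. With 5 samples a group and sex confounded with group, a difference between IPF and sham cannot be told apart from one between sexes.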
